A study of Saccharomyces cerevisiae with 2 samples.

Results

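The 53 genes described here encode the proteins that license replication origins, fire them and copy DNA at the fork in budding yeast, Saccharomyces cerevisiae. They were chosen by name, as the genes of known replication complexes, with earlier results of these data known. Each was found through the annotated symbol of its probe set. All 53 were found among 5449 S. cerevisiae genes named on the array, each read by 1 probe set, and all 53 were above the background level in both arrays. The study compared 1 mock-treated culture with 1 culture that had received the mating pheromone alpha factor at 50 ng/ml for 3 hours in rich medium. The labels of the treated sample describe its cells as alpha-factor arrested. Alpha factor is the peptide secreted by cells of the alpha mating type, and it makes a cells arrest in G1 and grow toward the partner. Both cultures were of strain R276, of the a mating type and derived from BY4741 in the S288c background, with the alleles ura3Δ0, leu2Δ0, his3Δ1 and met15Δ0 and with bar1Δ::KanMX in place of BAR1. BAR1 encodes the secreted protease that degrades alpha factor, so cells without it stay sensitive to small amounts of the peptide. No source used here says how the mock culture was grown. The mock sample carries the same free-text description as the treated one, so the groups rest on the sample titles and source names. With 1 array per group there was no replicate error, no test and no p-value for any value, and precision is limited by the number of arrays.

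Replication starts in steps that are kept apart in the cell cycle. In late mitosis and G1 the origin recognition complex (ORC), with Cdc6 and Cdt1, loads the ring-shaped MCM helicase onto DNA in an inactive form. At the start of S phase the Dbf4-dependent kinase and the S-phase cyclin-dependent kinase recruit Cdc45 and the GINS complex to MCM, and the active helicase then opens the fork for the polymerases, the sliding clamp PCNA, its loader RFC and the single-strand binding protein RPA. In budding yeast many genes of the fork proteins are transcribed in a wave at the G1/S transition under the transcription factor MBF, while CDC6 and the MCM genes are known for transcription around the end of mitosis and early G1.

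The arrays gave log2 expression values for 1 single-colour Affymetrix Yeast 2.0 hybridisation per culture. The background level was the 95th percentile of 1746 probe sets for the fission yeast Schizosaccharomyces pombe, at 5.50 in the mock and 5.49 in the alpha-factor array, and 5337 S. cerevisiae genes were above it in at least 1 array. A ratio is alpha factor over mock, and a gene was called lower or higher only by size, at 2-fold or more (a log2 ratio of 1 in size) with a level above background in at least 1 array. The middle 95% of the S. pombe log2 ratios lay between -0.38 and 0.35, which describes signal near background and not the spread between cultures. The response to the pheromone was present, since all 7 listed response genes were higher by 2-fold or more, with FUS1, a cell fusion gene, at 11.12 in the mock array and 13.85 with alpha factor. BAR1, URA3, LEU2 and MET17, the current name of MET15, were below background in both arrays. HIS3 was at 11.80 and 12.21, and whether its probe set lies in the deleted part was not examined. Of 7 genes that mark a cells, 6 were above background, with levels from 9.44 to 13.97 in the mock and from 12.15 to 14.64 in the alpha-factor array. All 6 had ratios above 1, with ASG7 and AGA2 higher by 2-fold or more. The 4 genes that mark alpha cells ranged from 5.85 to 9.53 in the mock and from 5.93 to 9.91 in the alpha-factor array, with STE3 and MF(ALPHA)2 higher by 2-fold or more. Control probe sets also differed. The 8 for 25S ribosomal RNA had a median log2 ratio of -0.85 but disagreed widely, from -5.20 to 0.01. In addition, 2 sets of bacterial controls, lys and dap, were each bright in 1 array only. The part of these markers and controls in the results below was not tested.

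The replication genes were mostly lower with alpha factor, by small amounts. Of the 53, 8 were lower by 2-fold or more, which is 15.1%, against 3.78% of all genes above background, and none was higher, against 5.51% of all genes. The 8 were CDC6, POL30, TOF1, RAD27, POL2, POL1, RFC4 and CDC45. A ratio below 1 was found for 46 of the 53, against 53.9% of all genes, and the median log2 ratio was -0.41 beside -0.03 for all genes. A ratio of 1.5-fold or more lower was found for 21 of the 53, against 10.7% of all genes, and no member was higher by that much, against 12.1%. Below the range of the S. pombe ratios lay 30 members, inside it lay 22 and above it lay 1, while 20.2% of all genes lay below that range and 20.3% above it. In a culture measured as a whole, fewer cells in a phase of the cell cycle and less RNA per cell cannot be told apart.

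**Figure D1:**
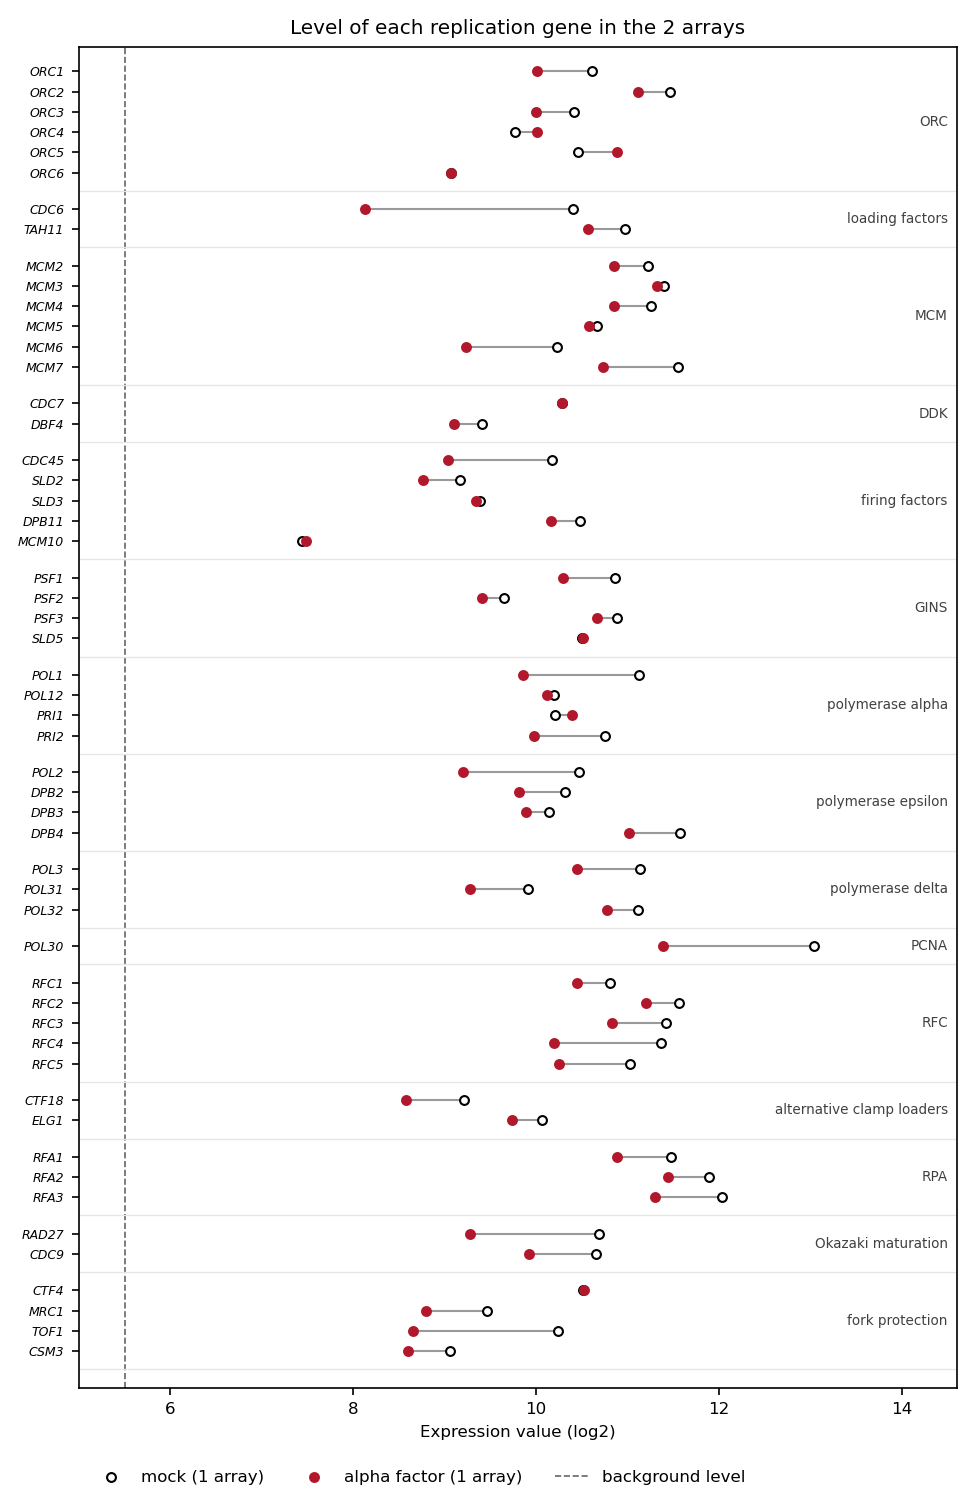
Expression value (log2) of each of the 53 genes in the mock array (open circles) and the alpha-factor array (filled circles), by subgroup, with the mock background level as a dashed line. Lines join the 2 values of 1 gene, every gene lies to the right of the background level, and levels of different genes are not comparable because each has its own probe set. CDC6 has the longest line, from 10.40 to 8.12, and ORC5 is the gene whose filled circle lies farthest to the right of its open one.

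The ratios of the origin recognition complex genes lay on both sides of 1-fold. ORC2, ORC4 and ORC6 were inside the range of the S. pombe ratios, -0.38 to 0.35, which describes signal near background and not the spread between cultures. None of the 6 ORC genes reached 2-fold, and their median log2 ratio was -0.18. ORC1, the subunit whose ATPase drives helicase loading together with Cdc6, was at 10.61 in the mock array and 10.01 with alpha factor, a log2 ratio of -0.60. ORC2 was at 11.46 and 11.11 in the same order, a log2 ratio of -0.35. ORC3, which with Orc2 belongs to the core of the complex, was at 10.41 in the mock culture and had a log2 ratio of -0.41. ORC4, a subunit of the AAA+ ATPase family, was at 9.77 in the mock array and 10.01 with alpha factor, a log2 ratio of 0.25. ORC5, an ATP-binding subunit, was at 10.46 in the mock array and 10.88 with alpha factor, and its log2 ratio of 0.42 was the highest of the 53. ORC6, which binds Cdt1 during loading, was at 9.07 and 9.07, a log2 ratio of -0.003. The complex therefore held both the highest member and subunits lower by up to 0.60 on the log2 scale.

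CDC6 had the lowest ratio of all 53 genes. It encodes the ATPase that joins ORC at the origin and is needed for each round of MCM loading, and it was at 10.40 in the mock array and 8.12 with alpha factor, which is 4.85-fold lower. It was the only member lower by 4-fold or more, a size reached by 1.01% of all genes. TAH11 encodes the budding yeast Cdt1, which brings MCM to the origin, and was at 10.97 in the mock array and 10.56 with alpha factor, a log2 ratio of -0.41. The ratios of these 2 loading factors were 1.87 apart on the log2 scale.

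All 6 genes of the MCM helicase ring had ratios below 1, as did 53.9% of all genes, and none met the 2-fold rule. Their log2 ratios ran from -0.9997 to -0.08 with a median of -0.39, although the 6 proteins form a ring with 1 copy of each. MCM6 was at 10.23 in the mock array and 9.23 with alpha factor, and its log2 ratio of -0.9997 missed the rule by the last digits and passed it after quantile normalization. MCM7 was at 11.55 and 10.73 in the same order, a log2 ratio of -0.82. Both were lower by more than 1.5-fold, and the other 4 were not. MCM2, a subunit that the Dbf4-dependent kinase phosphorylates, was at 11.23 and 10.85, a log2 ratio of -0.37. MCM4, a main target of the same kinase, was at 11.25 and 10.85, a log2 ratio of -0.40. MCM3 was at 11.40 and 11.32, and MCM5, its neighbour in the ring, was at 10.67 and 10.58. With log2 ratios of -0.082 and -0.086, these 2 lay close to the median of all genes. CDC6 and the 6 MCM genes, which are known to share transcription at the end of mitosis, thus ranged over 2.20 on the log2 scale.

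Neither gene of the kinase that activates MCM was lower by 1.5-fold. CDC7, the catalytic subunit, was at 10.28 in the mock array and 10.29 with alpha factor, a log2 ratio of 0.0022. DBF4, the regulatory subunit whose protein is degraded in G1, was at 9.41 in the mock array and 9.10 with alpha factor, a log2 ratio of -0.31.

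Among the factors that assemble the active helicase, CDC45 had the lowest log2 ratio, 0.74 below that of SLD2. CDC45 encodes the helicase cofactor that travels with the fork and was at 10.17 in the mock array and 9.03 with alpha factor, which is 2.20-fold lower. SLD2, a target of the S-phase cyclin-dependent kinase, was at 9.16 and 8.77, a log2 ratio of -0.40. SLD3, the other essential target of that kinase, was at 9.39 and 9.34, a log2 ratio of -0.049. DPB11, the scaffold that binds phosphorylated Sld2 and Sld3, was at 10.47 and 10.16, a log2 ratio of -0.31. MCM10, which acts late in helicase activation and is no subunit of the MCM ring, was at 7.44 and 7.48, a log2 ratio of 0.039. Apart from CDC45, the genes of this step lay within 0.40 of 0.

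The 4 GINS genes, whose products form a tetramer that completes the helicase, were within 1.5-fold. PSF1 was at 10.86 in the mock array and 10.29 with alpha factor, a log2 ratio of -0.57, the lowest of the 4. PSF2 was at 9.65 and 9.41, with a log2 ratio of -0.24, and PSF3 was at 10.88 and 10.66, with a log2 ratio of -0.22. SLD5 was at 10.50 and 10.51, a log2 ratio of 0.0062. The median of the 4 was -0.23.

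In each of the 3 replicative polymerases the gene of the catalytic polymerase subunit had the lowest ratio, by a small margin in polymerase delta. Of the 11 polymerase genes, 2 were lower by 2-fold or more, both catalytic. This is 18.2%, against 3.78% of all genes above background. The median log2 ratio of the 11 was -0.56. POL1, the catalytic subunit of polymerase alpha, which makes the DNA part of each primer, was at 11.12 in the mock array and 9.86 with alpha factor, which is 2.40-fold lower. POL2, the catalytic subunit of the leading-strand polymerase epsilon, was at 10.47 in the mock array and 9.20 with alpha factor, which is 2.41-fold lower. POL3, the catalytic subunit of polymerase delta, which synthesises the lagging strand, was at 11.13 in the mock array and 10.44 with alpha factor, a log2 ratio of -0.69 that did not reach 2-fold. The next gene of polymerase delta, POL31, was close to it, with a log2 ratio of -0.63. Each complex holds 3 or 4 genes with 1 probe set each, so this order describes 2 arrays and was not tested.

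The other subunits of polymerase alpha differed in ratio, and only PRI2 lay outside the range of the S. pombe ratios, -0.38 to 0.35. That range describes signal near background and not the spread between cultures. POL12, the regulatory B subunit, was at 10.20 and 10.11 in mock and alpha factor, a log2 ratio of -0.084. PRI1, the catalytic primase subunit that makes the RNA primer, was at 10.21 and 10.39, a log2 ratio of 0.18. PRI2, the large primase subunit, was at 10.75 and 9.97, a log2 ratio of -0.78. The primase pair, read by 1 probe set each, thus lay 0.96 apart, on either side of 1-fold.

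The other subunits of polymerases epsilon and delta all had ratios below 1, as did 53.9% of all genes. In polymerase epsilon, DPB2, the essential second subunit, was at 10.32 and 9.82, a log2 ratio of -0.50. DPB3 was at 10.14 and 9.89 and DPB4 at 11.57 and 11.02. These are the small histone-fold subunits, which pair with each other, and their log2 ratios were -0.25 and -0.56. In polymerase delta, POL31, the essential second subunit, was at 9.91 and 9.28, a log2 ratio of -0.63. POL32, the subunit that binds PCNA and can be deleted, was at 11.11 and 10.77, a log2 ratio of -0.34.

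**Figure D2:**
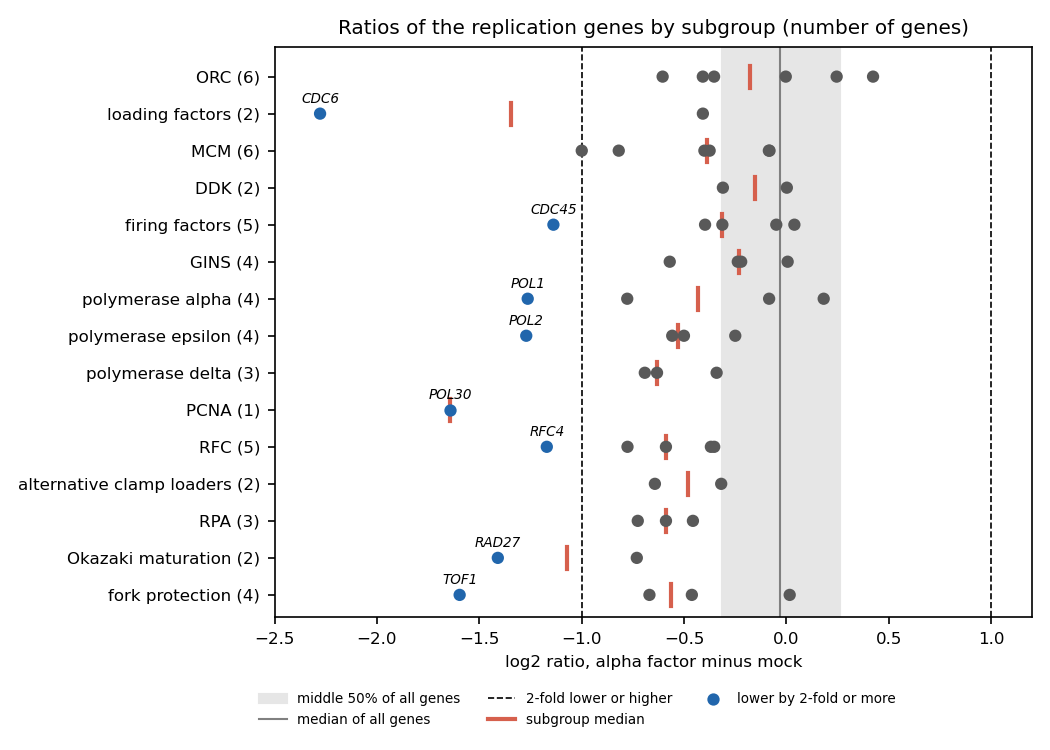
The log2 ratio (alpha factor minus mock) of each gene by subgroup, with the subgroup median as a vertical bar, the middle 50% of all genes above background (-0.32 to 0.26) shaded, and dashed lines at 2-fold. The 8 named points are the genes lower by 2-fold or more, they fall in 8 different subgroups, and no point reaches the upper dashed line.

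The sliding clamp was among the lowest genes and every gene of its loader had a ratio below 1, as did 53.9% of all genes. POL30 encodes PCNA, the ring that tethers polymerases to DNA, and was at 13.03 in the mock array and 11.39 with alpha factor, which is 3.12-fold lower. RFC4 was the lowest of the clamp loader genes, at 11.36 in the mock array and 10.19 with alpha factor, which is 2.25-fold lower. RFC5 was at 11.03 and 10.25 with a log2 ratio of -0.78, and RFC3 was at 11.42 and 10.83 with a log2 ratio of -0.59. RFC1, the large subunit found only in the replicative loader, was at 10.81 and 10.44, a log2 ratio of -0.37. RFC2 was at 11.56 and 11.20, a log2 ratio of -0.35. The small subunits Rfc2 to Rfc5 are shared with the alternative loaders, so RFC4 serves several clamp loaders. The median log2 ratio of the 5 was -0.59. CTF18, the large subunit of the loader that acts in sister chromatid cohesion, was at 9.21 and 8.57, a log2 ratio of -0.64. ELG1, the large subunit of the complex that unloads PCNA, was at 10.06 and 9.74, a log2 ratio of -0.32.

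The 3 genes of RPA, the heterotrimer that coats single-stranded DNA, had the closest ratios of any subgroup with 3 or more genes. RFA1, the large DNA-binding subunit, was at 11.47 in the mock array and 10.89 with alpha factor, a log2 ratio of -0.59. RFA2 was at 11.89 and 11.44, a log2 ratio of -0.46, and RFA3, the smallest subunit, was at 12.03 and 11.30, a log2 ratio of -0.73. They spanned 0.27 on the log2 scale, and none reached 2-fold.

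Both genes of Okazaki fragment maturation were lower by more than 1.5-fold, a size reached by 10.7% of all genes. RAD27 encodes the flap endonuclease that removes primers and was at 10.69 in the mock array and 9.28 with alpha factor, which is 2.66-fold lower. CDC9 encodes the DNA ligase that seals the fragments and was at 10.65 in the mock array and 9.92 with alpha factor, a log2 ratio of -0.73.

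At the fork protection complex, TOF1 had the lowest ratio of the listed genes. TOF1 was at 10.24 in the mock array and 8.65 with alpha factor, which is 3.02-fold lower. CSM3, whose product forms a heterodimer with Tof1, was at 9.06 and 8.60, a log2 ratio of -0.46. MRC1, the checkpoint mediator of the same complex, was at 9.46 and 8.79, a log2 ratio of -0.67. CTF4, which links the helicase to polymerase alpha, was at 10.51 and 10.52, a log2 ratio of 0.016. The genes of Tof1 and Csm3, whose products act as a pair, differed by 1.13 in log2 ratio. Each was read by 1 probe set. Over 45 other genes with a pair of probe sets, the SD of a single log2 ratio was 0.40.

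Pooled by step, the fork genes had the lowest median. The pooling was chosen after the values were seen, so it is a description, to be read beside the 3.78% of all genes that were lower by 2-fold or more and the 53.9% with a ratio below 1. The 14 licensing genes (ORC, loading factors and MCM) had a median log2 ratio of -0.39, with 1 lower by 2-fold or more, CDC6. The 11 genes of origin firing (the kinase, the assembly factors and GINS) had a median of -0.24, with 1 lower, CDC45. The 28 fork genes had a median of -0.61, with 6 lower and 26 with a ratio below 1. By deletion phenotype in S. cerevisiae, the 43 essential genes had a median of -0.41 with 6 lower, and the 10 genes whose deletion is viable had a median of -0.51 with 2 lower.

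**Figure D3:**
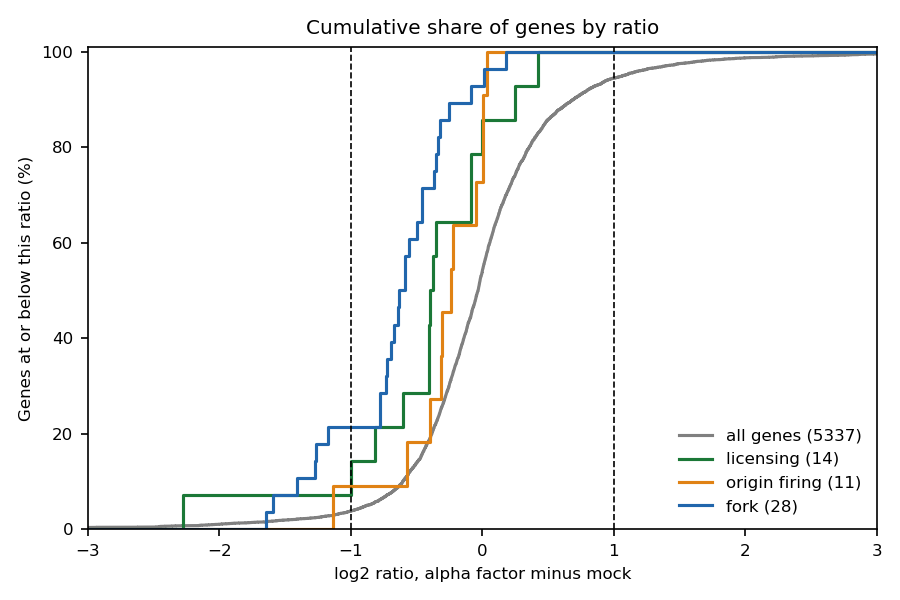
Cumulative percentage of genes at or below each log2 ratio (alpha factor minus mock) for all 5337 genes above background and for the licensing, origin firing and fork genes, with dashed lines at 2-fold and the axis limited to the range -3 to 3. The fork curve lies farthest left over most of its course, with a median of -0.61, and the 3 curves of replication genes all end below the upper dashed line while that of all genes goes past it.

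Ratios of replication genes did not follow gene length or level closely. Across the 53 genes, which are not independent replicates and share both arrays, the log2 ratio had a Spearman rho of -0.14 with gene length and of -0.05 with mean level. Over all genes above background these were -0.09 and -0.03. No weight is placed on values this small.

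The gene next to each member, on the side of its start, was examined after the members' values were seen. Strand was read from the systematic names, and gene order from the R64 annotation. Of 32 members with a measured neighbour transcribed in the opposite direction, 3 had a neighbour lower by 2-fold or more. This is 9.38% of them, against 3.78% of all genes above background. LSO1, the neighbour of POL31, was itself below background. The median log2 ratio was -0.10 for the neighbours and -0.57 for these members. The neighbour of CDC6 is ELO1, a fatty acid elongase gene, at 12.88 in the mock array and 11.08 with alpha factor, a log2 ratio of -1.80. The neighbour of RAD27 is ABF1, which encodes a DNA-binding factor of origins and promoters, at 10.56 in the mock array and 9.46 with alpha factor, a log2 ratio of -1.10. RFA1 lies beside SEN34, a tRNA splicing endonuclease subunit gene, whose log2 ratio was -1.12. The neighbours of the other 4 lower members in this set were within 2-fold, and that of TOF1, GOR1, was at a log2 ratio of 0.73. POL2 and ORC5 are adjacent on 1 strand, with log2 ratios of -1.27 and 0.42. HAP4 and SLD2 are also adjacent on 1 strand, with log2 ratios of -2.03 and -0.40.

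Other genes of DNA replication were counted from 3 lists. Together they hold 33 genes, of which 6 were lower by at least 2-fold, none was higher and 24 had a ratio below 1. These shares were 18.2%, 0% and 72.7%, against 3.78%, 5.51% and 53.9% of all genes. Their median log2 ratio was -0.22. Of 20 accessory genes, 1 was lower, which is 5% and near the 3.78% of all genes. This was RNH201, the catalytic subunit of ribonuclease H2, at 10.62 and 9.42, which is 2.30-fold lower. The median of these accessory genes was -0.19. Of 8 genes of nucleotide supply, 2 were lower, the ribonucleotide reductase gene RNR1 and CDC21, thymidylate synthase, at 10.73 and 9.64 with a log2 ratio of -1.09. RNR1 had a log2 ratio of -3.42, and RNR2 and RNR4, genes of the small subunit of the same enzyme, had ratios of 0.032 and 0.14. Of 5 genes of the S-phase kinase and its control, 3 were lower. CLB6, an S-phase cyclin, had a log2 ratio of -3.32, and CLB5, its paralogue, was at 10.12 and 9.10, a log2 ratio of -1.02. SIC1, which encodes the inhibitor of this kinase, was at 10.47 and 9.28, a log2 ratio of -1.19, so that the cyclins and their inhibitor were lower together. CDC28, the catalytic subunit, had a ratio of 0.031 on the log2 scale. The lists were drawn up with earlier results of these data known, and no test sets them against the members.

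**Figure D4:**
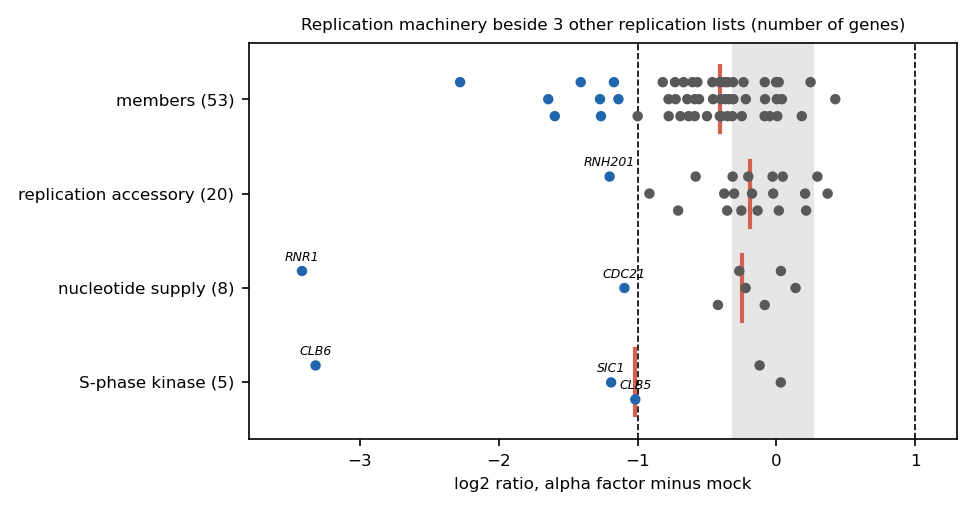
The log2 ratio (alpha factor minus mock) of the 53 members and of 3 other lists of replication genes, with list medians as vertical bars, the middle 50% of all genes shaded and dashed lines at 2-fold. Genes lower by 2-fold or more are blue and, outside the members, named, and RNR1 and CLB6 lie to the left of every member.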

How the data were processed

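Per the labels' protocols, DNase-treated total RNA of 2 cultures was biotin-labelled for Affymetrix Yeast 2.0 arrays. The authors made the deposited values with the affy package, per the submitters' processing notes, and they were read here as log2 because they range from 3.32 to 15.19. The sources used here do not name the package's version or its steps of background correction, normalization and probe summary. The sorted columns differed by at most 0.09, so a change in total mRNA would not show, and ratios are relative to the average gene.

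Genes were named by gene ID through the platform annotation and the RefSeq table of R64. Of 10928 probe sets, 7244 had 1 gene (5498 S. cerevisiae, 1746 taken as S. pombe because their gene ID was not in that table), 1 had several and 3683 were unnamed here. A gene with several probe sets got the mean of their log2 values. No pseudocount was added, and no statistical test between the cultures was possible with 1 array each. Calls used the 2-fold rule and the 95th percentile of S. pombe probe sets as background. The calling code was checked on simulated arrays with known ratios. The changes set there were well past the 2-fold rule, in genes well above background. That check does not cover changes near the rule. Alternatives are given in the closing section. Every member is named. Of the other lists, members past 2-fold are named, up to 5 per list, and RNR2, RNR4 and CDC28 were chosen after their values were seen, as were the neighbouring genes. The members and lists were chosen with earlier results of these data known. A planned motif search in promoters was not run, and no sequences are shown. The software was Python 3.11.15 with numpy 2.4.6, statsmodels 0.14.6, scipy 1.17.1, pandas 2.3.3 and matplotlib 3.10.9.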

Additional observations from a re-analysis of the deposited data

Results flagged for a closer look

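The bacterial control transcripts on the array, which no comparison above uses, differed between the 2 hybridisations. The 9 probe sets of the Bacillus subtilis control lys were at a median of 4.36 (log2) in the mock array, with a highest value of 5.60, and at a median of 12.27 in the alpha-factor array, with a lowest value of 11.77. They were singled out as measurements that no comparison above uses. Their signal in the alpha-factor array was above that in the mock array, the control of the study. The 9 probe sets of dap went the other way, from a median of 14.02 in the mock array to 4.16 with alpha factor. The 9 probe sets of phe were at medians of 4.21 and 4.12, and the 9 of thr at 4.63 and 4.53. The 27 probe sets of the hybridisation controls bioB, bioC, bioD and cre had log2 ratios between 0.01 and 0.34, with a median of 0.13. The 2 arrays therefore differed in which of these transcripts they detected, and the part of this difference in the ratios of the replication genes was not tested.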

How the results depend on the processing

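The count of genes lower by 2-fold or more was 8 or 9 under 8 alternatives to the values or the background level: centring on the S. cerevisiae or the S. pombe median, quantile normalization, subtraction of a loess curve, use of the brightest probe set, background at the 90th or 99th percentile and a pseudocount of 32. Each of the 8 kept all 8 lower genes, and quantile normalization added MCM6. No member was higher by 2-fold under any of them. Of all genes above background, 3.41% to 3.84% were lower and 5.17% to 5.86% were higher under these alternatives. Several of these alternatives could change little. Use of the brightest probe set left every member's ratio as it was, since each has 1 probe set, and the background level enters no ratio. Centring on the S. cerevisiae or the S. pombe median shifted all ratios equally, by 0.03 or 0.02. The members' median log2 ratio ran from -0.44 to -0.37. The largest move of a member's ratio was 0.12. The S. pombe log2 ratios, which describe signal near background, had an SD of 0.19. Such moves come from processing the same 2 arrays in other ways and do not measure the precision of a ratio between cultures. With a rule of 1.5-fold, 21 members were lower, against 10.7% of all genes. With a rule of 4-fold 1 was, against 1.01%. These counts differ from 8 by the rule's own construction. Over 45 genes with a pair of probe sets, the SD of a single log2 ratio estimated from the pairs was 0.40, and since every member has 1 probe set, no such check exists for a member. Within that distance of the 2-fold rule lay 4 of the 8 lower genes (CDC45, POL1, POL2 and RFC4) and 11 of the others. No paired analysis was possible because each group has 1 array.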
